A study of Mus musculus with 3 samples.

Results

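Accessible chromatin was described around 10 forkhead transcription factor genes of mesenchyme: Foxc1, Foxc2, Foxf1, Foxf2, Foxd1, Foxs1, Foxo1, Foxo3, Foxp1 and Foxp2. A peak summit was counted for a member when the nearest end of any protein-coding gene, within 50 kb, belonged to that member. Over 3 ATAC-seq libraries 161 deposited summits met this rule, 62 of 67404 at day 7 immobilized, 49 of 47912 at day 7 non-immobilized and 50 of 51722 at day 0. The members are 10 of 20665 autosomal protein-coding genes in the annotation used.

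ATAC-seq, here by the Omni-ATAC protocol, measures open chromatin by letting a transposase insert sequencing adapters into accessible DNA. The 3 libraries come from mouse mesenchymal stem cells in a study of heterotopic ossification, bone that forms outside the skeleton. The label of the first reads immobilized, at day 7 post-injury, that of the second non-immobilized at the same day, and that of the third day 0, before injury. Genotype, strain, age, type of injury, means of immobilization and the way cells were isolated were not given in the sources used here, nor was any pooling of animals. With a single library in each group, no difference could be set against a spread between replicates, and p-values were not computed.

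Forkhead factors bind DNA through a winged-helix domain, and some can open compacted chromatin. Foxc and Foxf factors shape embryonic mesoderm and its mesenchyme, with Foxf genes acting downstream of Hedgehog signals, and Foxd1 marks stromal progenitors of kidney and skin fibroblast lineages. FoxO factors are held out of the nucleus by insulin and PI3K-Akt signalling and otherwise switch on genes of quiescence, stress resistance and metabolism, while Foxp factors act mostly as repressors. Several of these genes also act in endothelial cells, Foxo1 and Foxc2 among them.

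The libraries held 143818952 read pairs at day 7 immobilized, 173029378 at day 7 non-immobilized and 176119937 at day 0. Duplication, reported as a separate statistic, was 43.4%, 42.0% and 60.2% in the same order. Because the lists differ in length, regions were built from the 47912 best-scoring summits of each (the equal-length lists), each widened by 250 bp on both sides and merged where they overlapped. A region counted as called in a library when it held at least 1 of its summits. A missing summit means that no peak passed there, not that the DNA was closed, and counts near a gene say nothing of its expression. Of 15 mesenchymal marker genes, 13 had a region within 1 kb of an end at day 7 immobilized, 11 at day 7 non-immobilized and 13 at day 0. The corresponding numbers were 7, 12 and 4 of 13 endothelial markers, 12, 7 and 3 of 13 keratinocyte markers, 2, 2 and 1 of 8 myeloid markers, 5, 7 and 6 of 7 skeletal muscle markers, and 6, 5 and 7 of 7 markers of pericytes and smooth muscle. Of all 20665 genes, 10941, 10970 and 10717 had such a region in the same order. Markers of other cell types thus carried summits in unequal numbers, some lists at or below the share over all genes. Their part in the results was not tested. In bulk samples a change in the share of cells of a type and a change within those cells cannot be told apart.

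The sequence just before an annotated start was known for 6 members. The 250 bases before the start are printed on the gene's strand, 5′ to 3′, from RefSeq on GRCm38.p6, the assembly of mm10. They are shown because a summit of at least 1 library fell in each start window (these bases plus the first 50 past the start). The summits fell within the printed bases in all 3 libraries for Foxc1 and Foxo1, at day 7 immobilized and day 0 for Foxo3, and at day 7 non-immobilized for Foxf2. The other summits of Foxf2 and all of those of Foxd1 and of the inner Foxp1 start lay past the start, and the non-immobilized Foxo3 summit lay further upstream. Capitals mark matches to 3 motifs, each searched on both strands. The GC box, bound by Sp factors, is spelled GGGCGG. The CCAAT box is spelled as it is named. The core of the forkhead motif is spelled TAAACA. RefSeq windows were matched for Foxc1, Foxf2, Foxd1, Foxo1, Foxo3 and Foxp1, the last with 3 starts, of which the one with the best-ranked summits is printed. Foxc2, Foxf1, Foxp2 and Foxs1 had no entry.
Foxc1, chr13:31806396-31806645, plus strand: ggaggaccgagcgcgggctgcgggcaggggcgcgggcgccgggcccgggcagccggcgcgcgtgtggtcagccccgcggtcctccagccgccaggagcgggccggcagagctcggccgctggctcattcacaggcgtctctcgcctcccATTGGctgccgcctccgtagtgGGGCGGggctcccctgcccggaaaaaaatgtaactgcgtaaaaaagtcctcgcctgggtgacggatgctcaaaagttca
Foxf2, chr13:31625566-31625815, plus strand: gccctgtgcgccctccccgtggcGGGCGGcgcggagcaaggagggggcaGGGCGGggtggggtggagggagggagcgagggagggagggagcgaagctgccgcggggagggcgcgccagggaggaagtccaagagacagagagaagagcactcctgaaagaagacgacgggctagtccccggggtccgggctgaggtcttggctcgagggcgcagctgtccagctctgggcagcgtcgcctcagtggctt
Foxd1, chr13:98353995-98354244, plus strand: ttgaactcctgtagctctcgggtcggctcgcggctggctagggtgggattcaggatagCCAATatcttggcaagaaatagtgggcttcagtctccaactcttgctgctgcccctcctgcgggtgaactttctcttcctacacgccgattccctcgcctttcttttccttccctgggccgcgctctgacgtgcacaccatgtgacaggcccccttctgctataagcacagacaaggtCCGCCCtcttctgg
Foxo1, chr3:52268087-52268336, plus strand: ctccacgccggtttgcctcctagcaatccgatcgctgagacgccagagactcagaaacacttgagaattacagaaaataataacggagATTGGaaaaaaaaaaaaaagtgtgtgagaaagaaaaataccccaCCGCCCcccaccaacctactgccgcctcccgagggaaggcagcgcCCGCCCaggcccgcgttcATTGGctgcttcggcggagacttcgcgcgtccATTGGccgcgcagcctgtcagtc
Foxo3, chr10:42276696-42276945, minus strand: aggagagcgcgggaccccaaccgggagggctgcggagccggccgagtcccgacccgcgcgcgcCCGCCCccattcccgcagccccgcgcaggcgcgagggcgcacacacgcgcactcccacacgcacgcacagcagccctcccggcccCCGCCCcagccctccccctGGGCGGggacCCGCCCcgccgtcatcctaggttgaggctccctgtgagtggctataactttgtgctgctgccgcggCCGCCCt
Foxp1 inner start, chr6:99028299-99028548, minus strand: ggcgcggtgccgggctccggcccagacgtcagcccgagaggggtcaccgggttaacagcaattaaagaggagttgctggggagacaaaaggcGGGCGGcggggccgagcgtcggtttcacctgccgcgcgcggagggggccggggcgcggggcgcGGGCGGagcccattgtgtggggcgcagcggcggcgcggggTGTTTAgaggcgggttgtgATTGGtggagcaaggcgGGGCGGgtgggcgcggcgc

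These 6 windows were chosen for holding a summit. Of all start windows, 31.7%, 29.7% and 30.6% held one at day 7 immobilized, day 7 non-immobilized and day 0. The values over all windows below are therefore not from a like set. The 6 windows ranged from 56.0% (Foxo1) to 76.4% (Foxo3) GC, against a median of 52.4% over 31387 windows of all autosomal genes. CpG pairs numbered from 12 (Foxd1) to 34 (Foxp1), against a median of 6. Each held at least 1 GC box, from 1 in Foxc1 and Foxd1 to 5 in Foxo3, and 33.0% of all windows had one. CCAAT boxes were found in 4 of the 6, with 3 in Foxo1, against 33.7% of all windows. Among these 6 the forkhead core was found in the Foxp1 window, once, 55 bases before the start, and it was in 12.0% of all windows. The other 2 Foxp1 starts had 2 and 1 matches to it. The longer forkhead sequence GTAAACA, which contains the core and was present in 3.21% of all windows, the AP-1 site TGACTCA, in 4.5%, and the TATA box TATAAA, in 12.4%, were absent from all 6. A match is a description of letters and not a binding site.

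Near their ends the members were mostly open in all 3 libraries. In the equal-length lists 10 of 10 members had a summit within 1 kb of an end at day 7 immobilized, 9 at day 7 non-immobilized and 10 at day 0, against 53.0%, 53.3% and 52.0% of all genes. The member without one was Foxo3 in the non-immobilized library. Scores were read as ranks within each list, where 0% is the best summit, and these ranks describe a list and show no change between lists.

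**Figure D1:**
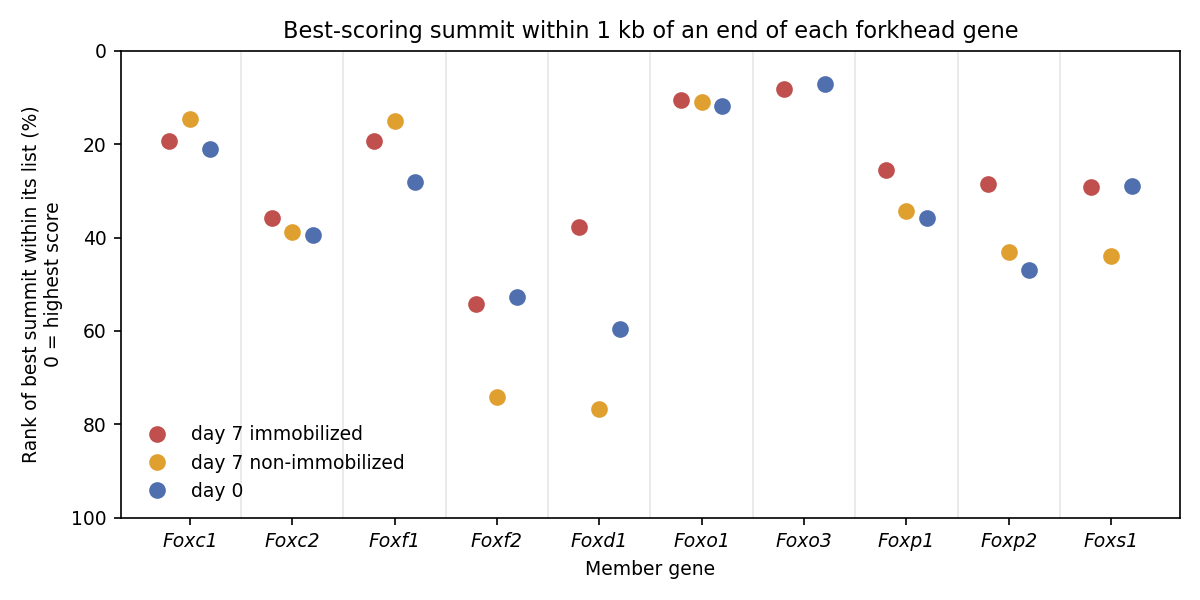
Rank, in percent of the deposited list with 0% the best score, of the best-scoring summit within 1 kb of either end of each member, with 1 point per library (day 7 immobilized, day 7 non-immobilized, day 0 from left to right). Foxo1 lay between 10.6% and 11.8% in all 3 lists, Foxf2 between 52.8% and 74.2%, and Foxo3 has no point for day 7 non-immobilized.

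Foxo1 and Foxo3 carried the best-ranked end summits of the members at day 7 immobilized and day 0. At day 7 non-immobilized, where Foxo3 had none within 1 kb, Foxo1 ranked best, followed by Foxc1. The Foxo1 summit lay 24, 16 and 13 bases before the gene start at day 7 immobilized, day 7 non-immobilized and day 0, with ranks of 10.6%, 10.9% and 11.8%, so its position and rank were alike in the 3 lists. Foxc1, a factor of skull, eye and vessel development, had its start summit 97 to 117 bases before the start at ranks of 19.4%, 14.7% and 21.1%, inside the printed window. For Foxf1, a factor of visceral mesenchyme, the single region lay 0.59 kb outside the low-coordinate end and ranked 19.4%, 15.0% and 28.2%. Foxc2, which patterns mesoderm and lymphatic valves, ranked 35.9%, 38.8% and 39.4% at its low-coordinate end.

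Among the other members, Foxp1 had best end ranks of 25.6%, 34.4% and 35.8% in the same order, 647 to 740 bases outside its outermost start. Foxf2, a mesenchymal factor of gut, palate and brain pericytes, ranked 54.2%, 74.2% and 52.8% at day 7 immobilized, day 7 non-immobilized and day 0, with no library in the better 50% of its list. Foxd1 had a summit 26 bases past its start at day 7 immobilized (37.8%) and 2 bases past it at day 0 (59.5%). In the non-immobilized library the nearest Foxd1 summit lay 629 bases past the start, at 76.8%, and the start window itself held none. Foxs1, found in perivascular cells and sensory neurons, had best end ranks of 29.2%, 44.0% and 29.0%, and Foxp2, best known from speech circuits of the brain, ranked 28.5%, 43.1% and 47.0%. Over all members, the median rank of end summits was 35.9% at day 7 immobilized, 43.1% at day 7 non-immobilized and 47.8% at day 0, against 14.1%, 17.7% and 16.7% for end summits of all genes.

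Across the equal-length lists the members had 61 regions, 43 called at day 7 immobilized (70.5%, against 72.8% of regions near any gene end), 47 at day 7 non-immobilized (77.0%, against 71.7%) and 41 at day 0 (67.2%, against 70.4%). Regions called in all 3 libraries numbered 26, or 42.6%, against a background of 48.4% of the 51407 regions near any gene end. Another 6 were shared by the day 7 libraries alone (9.84%, against 8.3% of all regions), 7 by day 7 immobilized and day 0 (11.5%, against 4.98%), and 5 by day 7 non-immobilized and day 0 (8.2%, against 4.78%). The immobilized library alone held 4 (6.56%, against 11.1%), the non-immobilized library alone 10 (16.4%, against 10.2% of all regions) and day 0 alone 3 (4.92%, against 12.2%). The 10 found in the non-immobilized library alone ranked 84.8% at the median, where regions of that kind over all genes ranked 80.1%, and 3 of them had a summit in another full list. Within 1 kb of an end 10 of 16 member regions were called in all 3 libraries, or 62.5% (exact Clopper-Pearson 95% interval 35.4 to 84.8, counting error only), against 76.1% of all such regions. Farther out the number was 16 of 45, or 35.6% (21.9 to 51.2), against 38.2%. In the 26 shared regions the summits of the 3 libraries spread over a median of 55 bp, against 41 bp for all shared regions. Summits of the members had median ranks of 56.2%, 55.3% and 54.0% at day 7 immobilized, day 7 non-immobilized and day 0, against 46.1%, 45.6% and 45.3% for all summits within 50 kb of a gene end.

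**Figure D2:**
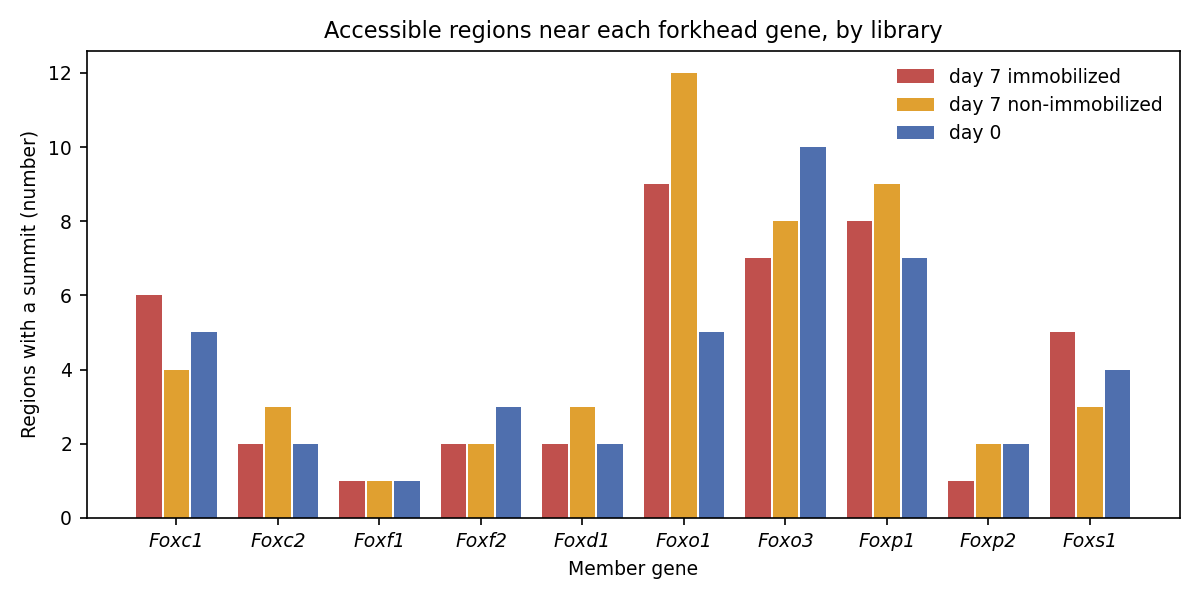
Number of regions with a summit near each member in the equal-length lists, with bars for day 7 immobilized, day 7 non-immobilized and day 0 from left to right. Foxo1 has 9, 12 and 5 regions and is the member whose bars differ most, while Foxf1 has 1 in each library.

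Members differed widely in how many regions they had. Foxo1 had 14, Foxo3 12 and Foxp1 11, and only 0.992%, 1.81% and 2.44% of all genes had more. These 3 are also long genes, of 81.8, 94.9 and 597 kb, with free flanks of at least 35.9 kb to the next protein-coding gene. Foxp2 is also long, at 541 kb with flanks of 146 and 279 kb, and had 2 regions. Foxc1 had 6 regions, Foxs1 5, Foxd1 4, Foxc2 and Foxf2 3 each and Foxf1 1, where the median gene had 1. Foxs1 and Foxc2 have a neighbouring gene within 8.83 kb on both sides, which limits the regions that can fall to them under this rule.

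The first comparison set day 7 immobilized against day 7 non-immobilized cells, which differ in the label on immobilization and share the day after injury. Of 58 member regions called in either, 11 were called only in the immobilized library (19.0%, background 18.3%), 15 only in the non-immobilized one (25.9%, background 17.1%) and 32 in both. Most of the lean towards the non-immobilized library lay at Foxo1, with 2 regions only in the immobilized and 5 only in the non-immobilized library. Without Foxo1 the numbers were 9 and 10. At Foxo1 itself the numbers were 1 and 1 within 10 kb, and 3 and 3 with the lists as deposited, where the immobilized list is longer. Over all members the lists as deposited gave 24 and 9. The immobilized share of the regions called in 1 of the pair was then 72.7%, against 80.6% over all genes, and in the equal-length lists 42.3%, against 51.7%. It lay below the share over all genes in both settings.

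The second comparison set day 7 immobilized against day 0, and the third day 7 non-immobilized against day 0. Both use the same day 0 library. At day 7 immobilized 10 member regions were called that day 0 lacked (19.6% of 51, background 21.6%), and 8 were called only at day 0 (15.7%, background 18.9%). At day 7 non-immobilized 16 were called that day 0 lacked (28.1% of 57, background 20.8%), and 10 only at day 0 (17.5%, background 19.3%). Foxo1 alone gave 4 and 8 of the regions called only at day 7 and 0 and 1 of those called only at day 0. Without Foxo1 the numbers were 6 against 8 for immobilized and 8 against 9 for non-immobilized cells.

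A stricter reading took the 23956 best summits of a list and asked which had no summit within 500 bp in the whole deposited list of another library, a rule chosen after the data were seen. At day 7 non-immobilized 22 of them were summits of members, and 4 of the 22 were absent from day 0, against 8.51% over all genes. The 4 lay at Foxo1 (20.1 and 33.5 kb past the far end) and Foxp1 (43.3 and 0.045 kb inside the start). The last lay in a merged region called in all 3 libraries, where day 0 had a summit 0.739 kb inside the start. At day 7 immobilized 0 of 15 were absent from day 0, against 7.92%, and 1 of 15 was absent from the non-immobilized list, against 4.53%, at the Foxo3 start. At day 7 non-immobilized 1 of 22 was absent from the immobilized list, against 2.62%, again at Foxo3. At day 0 the number absent from the immobilized list was 1 of 21, against 3.13%, at Foxo3, and 3 of 21 were absent from the non-immobilized list, against 5.36%, at Foxo3 and Foxs1.

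Foxo1 lies on chromosome 3 from 52268337 to 52350109, plus strand. Its 5 regions at day 0 all lay before the gene or in its first 2 kb: at 25.7, 24.5 and 10.4 kb before the start, at the start itself, and 1.77 kb inside. The one at 24.5 kb was missing from the non-immobilized list, and the other 4 were called in all 3 libraries. The other 9 regions of Foxo1 lay deeper in the gene or beyond its far end, and each was called at day 7 and not at day 0. Within the rule's 50 kb the full day 0 list held 0 summits in that stretch, against 6 in the full immobilized list and 8 in the non-immobilized list, so the absence at day 0 did not come from shortening the list.

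Both day 7 libraries shared 3 of these 9 day 7 regions (21.4% of 14 Foxo1 regions, against 8.3% of regions near any gene end). The non-immobilized library alone held 5 (35.7%, against 10.2%) and the immobilized library alone 1 (7.14%, against 11.1%). The shared ones lay 30.6 kb inside the gene, 20.1 kb past its far end and 33.5 kb past it. At 33.5 kb the summit ranked 69.2% in the immobilized list and 18.0% in the non-immobilized list, with scores of 6.83 and 31.27, and at 20.1 kb the ranks were 64.9% and 33.3%. These 2 regions, strong in the non-immobilized list, had no summit within 500 bp in the whole day 0 list. The region found in the immobilized library alone lay inside the gene, 6.76 kb before the far end, at rank 47.1%. The 5 found in the non-immobilized library alone ranked between 54.8% and 99.0%, and 2 of them had a weaker summit in the full immobilized list.

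**Figure D3:**
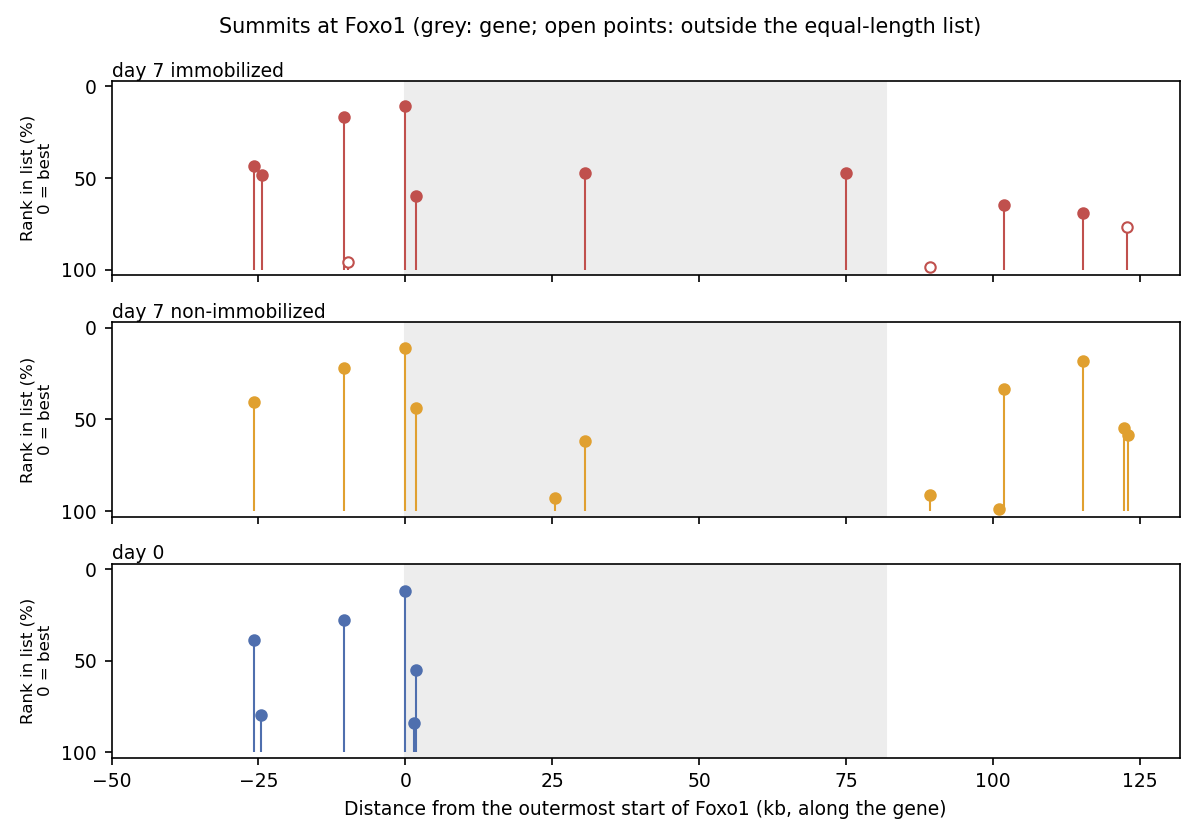
Every deposited summit from 50 kb before to 50 kb past Foxo1, 1 panel per library (day 7 immobilized, day 7 non-immobilized, day 0 from top to bottom). The horizontal axis is the distance from the gene start in kb, and the vertical axis the rank within the list, 0% at the top. Open points are summits outside the equal-length list. The day 0 panel has 6 summits, all left of 2 kb, whereas the day 7 panels have 6 and 8 further right.

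The rule's limit fell beside a strong Foxo1 region. A region 51.2 kb past the far end, just outside, held summits at ranks of 22.5%, 20.2% and 51.7% at day 7 immobilized, day 7 non-immobilized and day 0, while the outermost summits inside the limit were immobilized summits of Foxp1 and Foxo3 at 46.6 to 47.5 kb, ranked 82.8% to 86.1%. Day 0 was therefore not empty beyond Foxo1 altogether. With a limit of 10 kb only 2 of the 9 day 7 regions of Foxo1 were counted. The 13 endothelial marker genes had 92 regions, 46 called at day 7 immobilized, 73 at day 7 non-immobilized and 35 at day 0. Regions near any gene end were called in 72.8%, 71.7% and 70.4% in the same order. Sox17, Sox18 and Robo4 had 0 at day 0. Single markers varied, with 7, 12 and 3 regions at Pecam1, 8, 5 and 2 at Vwf, 6, 10 and 7 at Erg, 4, 8 and 7 at Egfl7 and 2, 3 and 4 at Esam. Among all genes, Myo10, Pecam1 and Xxylt1 were most like Foxo1 in their counts of regions by combination of libraries, with a summed difference of 3 regions over the 7 combinations; Pecam1 encodes the endothelial surface protein CD31. Whether endothelial cells in the samples contributed to the Foxo1 regions was not tested.

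Foxo3, the second FoxO gene, a factor of stem cell quiescence, lies on chromosome 10 from 42181845 to 42276695 on the minus strand. It had the most regions at day 0, with 7 at day 7 immobilized, 8 at day 7 non-immobilized and 10 at day 0. Of its 12 regions 4 were called in all 3 libraries. The strongest of these lay inside the gene, 25.3 and 45.4 kb from the start. Their ranks were 14.6%, 24.8% and 20.8% for the nearer and 18.3%, 29.1% and 34.4% for the farther, at day 7 immobilized, day 7 non-immobilized and day 0. The order of the counts depended on list length, since with the lists as deposited 6 regions were called only in the immobilized library and 5 only at day 0 of that pair. The genes most like Foxo3 in their counts by combination of libraries were Ccdc162, Col1a2, a type I collagen gene, and Notch2, a receptor of cell-to-cell signalling, each at a summed difference of 2.

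The Foxo3 start was split between libraries. At 62 bases before the start a summit was found at day 7 immobilized (rank 8.2%) and at day 0 (7.2%), at the same base in both. The non-immobilized list had none there, but held a summit 1.11 kb before the start at rank 8.9%, where day 0 had one at 10.2% and the immobilized list none. Each library thus had at least 1 summit of rank 8.9% or better in this stretch, and day 0 alone had a summit at both places. The lists give no peak widths, and whether the peaks overlapped was not tested.

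**Figure D4:**
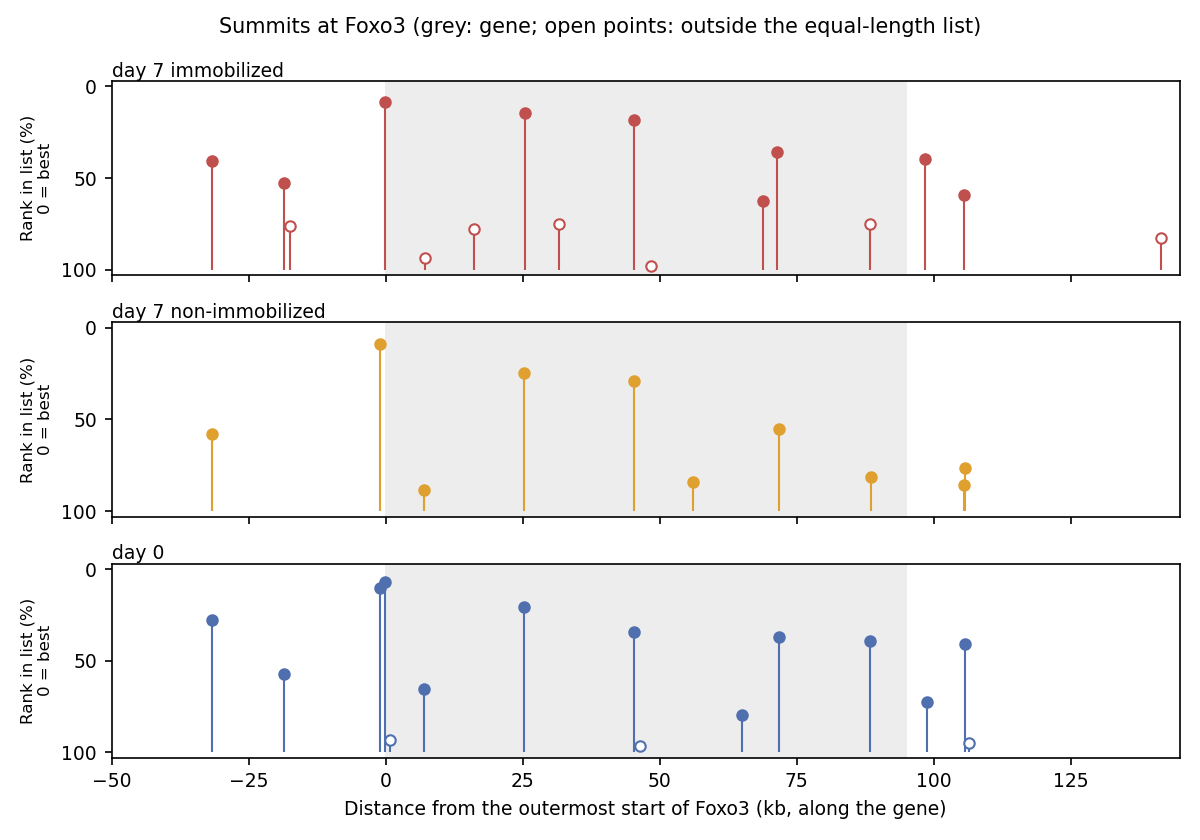
Every deposited summit from 50 kb before to 50 kb past Foxo3, 1 panel per library (day 7 immobilized, day 7 non-immobilized, day 0 from top to bottom), with distance from the start in kb along the gene and rank within the list, 0% at the top. The 2 places farthest left lie nearer to the neighbouring gene Afg1l and were not counted for Foxo3. At the start the immobilized panel has 1 summit at rank 8.2%, the non-immobilized panel 1 at 8.9% and the day 0 panel 2 at 7.2% and 10.2%, with a weaker open point just inside the gene.

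Foxp1, a repressor that guides progenitor and lymphocyte differentiation, spans 597 kb on chromosome 6 (98925342 to 99522746, minus strand). Within 50 kb of its ends it had 8 regions at day 7 immobilized, 9 at day 7 non-immobilized and 7 at day 0, and 6 of its 11 regions were called in all 3. The best lay 37.4 kb inside the gene from its outermost start and ranked 12.1%, 14.9% and 12.4%. A region 43.3 kb inside was called at day 7 immobilized (46.8%) and day 7 non-immobilized (35.4%), with no summit in the full day 0 list. Aff1 had the same counts as Foxp1 in all 7 combinations of libraries, a summed difference of 0.

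Most of Foxp1 lies beyond the rule's reach, and its interior was counted separately. Regions inside Foxp1 and more than 50 kb from either end numbered 25, of which 19 were called at day 7 immobilized, 13 at day 7 non-immobilized and 9 at day 0. The immobilized library alone held 10 of them (40.0%), against 13.2% of the 7247 such deep regions in all genes. The non-immobilized library alone held 4, against 13.0% of the deep regions, and day 0 alone 1, against 19.8%. All 3 libraries shared 6 (24.0%), against 32.4%. Of the 10 in the immobilized library alone, 9 had no summit in the full lists of the other libraries. That could hardly differ, since the non-immobilized list was used whole and day 0 lost 7.37% of its summits. Ranks of the 10 in the immobilized list ran from 32.6% to 69.2% with a median of 60.2%. With the lists as deposited, the whole gene held 37 of 67404 summits at day 7 immobilized, 22 of 47912 at day 7 non-immobilized and 20 of 51722 at day 0. The 13 keratinocyte marker genes had 62 regions, 58 called at day 7 immobilized, 17 at day 7 non-immobilized and 12 at day 0. For regions near any gene end the shares were 72.8%, 71.7% and 70.4%. Krt5, Krt14, Krt17 and Dsg3 had 0 at day 7 non-immobilized and at day 0. Other markers of the list varied, with 1, 1 and 1 regions at Krt10, 3, 3 and 1 at Trp63 and 7, 1 and 4 at Perp. The part of such cells in the Foxp1 regions was not tested.

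**Figure D5:**
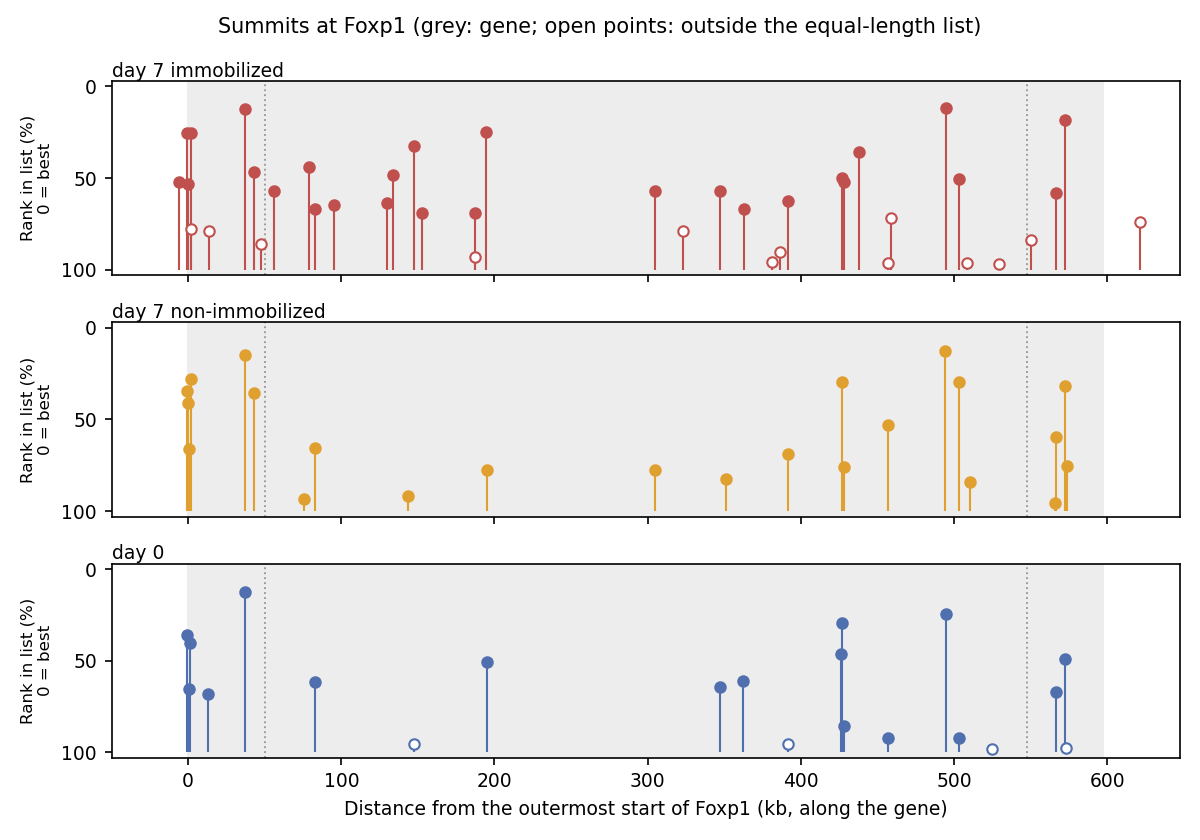
Every deposited summit from 50 kb before to 50 kb past Foxp1, 1 panel per library (day 7 immobilized, day 7 non-immobilized, day 0 from top to bottom), with distance from the outermost start in kb along the gene and rank within the list, 0% at the top. Dotted lines mark 50 kb from each end. Between them lie 19 regions of the equal-length list at day 7 immobilized, 13 at day 7 non-immobilized and 9 at day 0.

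The inner start of Foxp1, 494 kb inside the gene, was open in all 3 libraries. Its summit lay 39, 7 and 41 bases past the start at day 7 immobilized, day 7 non-immobilized and day 0, at ranks of 11.9%, 12.7% and 24.3%. At the start nearest the 5′ end of the gene the summits lay 137 and 138 bases before it at day 7 immobilized and day 7 non-immobilized (25.4% and 28.0%), and 289 bases before it at day 0 (40.3%), which is outside the window. The middle start had no summit within 48 kb in any library, and its window had 3 CpG pairs and 45.2% GC. Foxp2, on chromosome 6 from 14901349 to 15441977, had 1 region of the equal-length lists more than 50 kb inside it, in the non-immobilized library.

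Foxc1, Foxf2 and Foxd1 lie on chromosome 13, with Foxf2 (31625816 to 31631406) and Foxc1 (31806646 to 31810635) 175 kb apart. Of the 6 regions of Foxc1, 4 were called in all 3 libraries, at 14.0 and 5.26 kb before the start, at the start and 1.59 kb past it. The region at 5.26 kb ranked 21.4%, 49.0% and 29.2% at day 7 immobilized, day 7 non-immobilized and day 0. A region 0.495 kb past the start was called at day 7 immobilized (39.3%) and day 0 (56.1%). Another, 26964 bases before the start, was called at day 7 immobilized alone (64.0%). Neither had a summit in the non-immobilized list, which was used whole. Foxf2 had 2 of 3 regions in all libraries, at the start and 7.16 kb before it, and 1 at day 0 alone, 26.1 kb before it, at rank 87.5%. None of the 4 regions of Foxd1 (98354245 to 98356705) was called in all 3 libraries in the equal-length lists, and 1 was with the lists as deposited.

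Foxf1 (121084386 to 121088154) and Foxc2 (121116171 to 121118895) share a stretch of chromosome 8 with Foxl1 and with Fendrr, a long non-coding RNA gene whose high-coordinate end is at 121083110. The Foxf1 region lay between Fendrr and Foxf1, and its 3 summits fell within 11 bp of each other. Foxc2 had a region 2.69 kb outside its low-coordinate end that ranked 15.2% at day 7 immobilized, 41.4% at day 7 non-immobilized and 21.0% at day 0. Another region, 1.31 kb inside Foxc2, was called in the non-immobilized library alone, at rank 75.8%, with no summit in the full lists of the others.

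Foxs1 (chromosome 2, 152931898 to 152933208) had 5 regions, of which 5, 3 and 4 were called at day 7 immobilized, day 7 non-immobilized and day 0. Those 1.44 kb outside the low-coordinate end and 0.582 kb outside the high-coordinate end ranked 63.3% and 67.7% at day 7 immobilized, against 38.6% and 37.8% at day 0, and the whole non-immobilized list had no summit within 500 bp of either. For the second, a non-immobilized summit 0.05 kb outside the high-coordinate end lay just beyond that limit. With summits widened by 500 bp Foxs1 had 4 regions, and non-immobilized minus day 0 was 0. Its summits 0.065 kb outside the high-coordinate end ranked 48.1%, 71.2% and 29.0%, and those 0.15 kb outside the low-coordinate end 29.2%, 44.0% and 79.4%. Over 7 markers of pericytes and smooth muscle 29, 31 and 41 of 48 regions were called in the same libraries. The shares over regions near any gene end were 72.8%, 71.7% and 70.4%. Each of these markers had at least 1 region in all 3. Their part in the Foxs1 regions was not tested.

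Other forkhead genes were counted in the same way. Of 31 such genes on autosomes 25 had a region, 83 in all, with 66 called at day 7 immobilized, 62 at day 7 non-immobilized and 54 at day 0, and 48.2% were called in all 3, against 48.4% of all regions. Foxo6, a brain-enriched FoxO gene, had 8, 10 and 8 regions, Foxp4 8, 5 and 7, and Foxk1, a metabolic and myogenic factor, 9, 7 and 9. The remaining 6 had none.

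Genes that act on FoxO factors or are driven by them, 27 in all, had 155 regions. At day 7 immobilized, day 7 non-immobilized and day 0, 114, 109 and 114 of them were called, with 49.7% in all 3 libraries. Regions near any gene end were called in 72.8%, 71.7% and 70.4%, with 48.4% in all 3. Pik3r1, the regulatory subunit of PI3K, had 13, 13 and 17, the insulin receptor substrate Irs2 10, 7 and 15, and the kinase Sgk1 9, 8 and 6. Over the 15 Hedgehog pathway genes the numbers were 61, 64 and 71 of 99 regions, with 44.4% in all 3. Gli2, a transcriptional effector of the pathway, had 12, 8 and 12, Disp1, which releases the ligand, 8, 9 and 10, Sufu, which restrains Gli proteins, 7, 11 and 8, and Gli3, mostly a repressor, 7, 5 and 9.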

How the data were processed

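Peak summits of 3 ATAC-seq libraries, 1 per group, were analysed, with groups taken from the sample labels. Per the submitters' processing notes, the build was mm10 and the tools included MACS2 2.1.2, Bowtie2 2.3.4.1, bedtools 2.28.0, SAMtools 1.2, cutadapt and Picard. Cutoffs, parameters and any shift of reads for the transposase were not given in the sources used here. In the deposited lists column 5 was read as a −log10 p or q value of the authors' peak caller, and used only to rank. Per the file headers, the deposited run statistics give read counts, duplication as a fraction and alignment as a percent (92.5%, 89.9% and 90.9% at day 7 immobilized, day 7 non-immobilized and day 0).

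Computed here: lists cut by score to 47912 summits (lowest scores kept 6.61, 1.33 and 4.00 in the same order), windows of 250 bp on each side, overlapping windows merged into 67237 regions, and each region given to the nearest end of a protein-coding gene (RefSeq, GRCm38.p6) within 50 kb of its best-ranked summit. At day 0, 697 of 835 summits tied at the lowest score were kept, in file order. The table holds no exons, and strand came from the start windows. The lists hold chromosomes 1 to 19 only. The 10 members, the lists and the rules were chosen with earlier results of these data known. Named are all members, the 3 genes of each other list with the most regions (4 with a tie), neighbours, genes singled out by a count, and the nearest genes by summed difference over the 7 combinations of libraries for the 3 members with the most regions. Genes at 0 and other single markers were named after their values were seen. Alternatives covered list length, score, width, distance, assignment and members. Region building was tested on simulated data. Tools were pandas 2.3.3, scipy 1.17.1, numpy 2.4.6 and, for figures, matplotlib 3.10.9, under Python 3.11.15.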

Additional observations from a re-analysis of the deposited data

How the results depend on the processing

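With 1 library per group no alternative could be set against a spread between replicates, and no replicate could be left out. Shares below are of member regions called in only 1 library of a pair, in percent for the library named first, with the share over all genes after each. For day 7 immobilized and day 7 non-immobilized the share was 42.3 (51.7), but 72.7 (80.6) with the lists as deposited, 51.2 (51.5) with summits given to the gene that holds them and 11.1 (49.1) with the better 50% of the equal-length lists (23956 summits each). For day 7 immobilized and day 0 it was 55.6 (53.4), but 25 (51.4) with the better 50%, 37.5 (53.9) within 10 kb and 42.9 (53.4) without Foxo1. For day 7 non-immobilized and day 0 it was 61.5 (51.9), but 40.0 (53.6) within 10 kb and 47.1 (51.9) without Foxo1. Few regions gave the lowest of these shares. Those only in the first and only in the second library were 1 and 8 for 11.1, and 3 and 9 for 25. They were 3 and 5 for 37.5, and 4 and 6 for 40.0. Regions in all 3 libraries numbered 26, but 11 with the better 50% and 16 within 10 kb. The cause of these shifts was not tested, beyond the fewer regions counted under the stricter settings. Of 40 recomputed values of these 4 results, 30 did not cross 50% and stayed within the main share's 95% interval, or stayed within 1.5 times the main count. Of these, 2 were exactly 50%: the first pair within 10 kb and the last with the lists as deposited. Of the other values, 7 crossed 50% and 3 moved beyond those bounds. The 40 include settings added after the data were seen (tied scores left out, a limit of 55 kb), whose values all stayed within the bounds.

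Among single members, differences (first minus second library) changed sign with the lists as deposited for Foxd1 (2 for immobilized minus non-immobilized, -1 for non-immobilized minus day 0), Foxo3 (6 for immobilized minus non-immobilized, 1 for immobilized minus day 0) and Foxp1 (4 for immobilized minus non-immobilized). With the better 50%, immobilized minus day 0 was -1 for Foxo1, 1 for Foxp2 and -2 for Foxs1. Foxp1 gave 1 within 10 kb, 2 within 100 kb and 5 by the gene that holds the summit for immobilized minus non-immobilized. For Foxo1 the difference between day 7 non-immobilized and day 0 was 7 and ran from 1 to 7 over 9 alternatives. Its difference of immobilized minus non-immobilized was -3 and ran from -4 to 0. After the data were seen, leaving out tied scores changed none of these shares or the count of 26, and a limit of 55 kb gave 27 shared regions.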
